A study of Homo sapiens with 8 samples.

Results

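The genes described here encode the phagocyte NADPH oxidase and the enzymes that clear its products: the oxidase subunits CYBB, CYBA, NCF1, NCF4 and RAC2, the superoxide dismutases SOD1 and SOD2, and catalase, CAT. Their rows were selected by gene symbol. All 8 were found among the 62700 rows of the gene table, and all 8 were among the 17535 genes with enough counts to be tested. The cells were THP-1, a human monocytic leukaemia line, made macrophage-like over 72 h in 50 ng/mL PMA, a phorbol ester, then loaded with acetylated low-density lipoprotein for 48 h, which makes cholesteryl ester-filled foam cells. One group of 4 libraries received 0.5 µM auranofin (AF), a gold drug that blocks thioredoxin reductases, and the other group of 4 received the vehicle dimethyl sulfoxide (DMSO, below 0.1% by volume). Both groups carried the PMA and lipoprotein treatments, and no unloaded or untreated macrophages are analysed here. Per the sample protocol the drug was added 24 h before the lipoprotein and kept on, but according to the design text of the series it followed the loading. Poly-A RNA was sequenced, and the question was how auranofin alters foam cell expression. A single cell line was used and the labels do not say whether libraries came from separate cultures, so the p-values rest on library-to-library spread that could be purely technical.

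In phagocytes the oxidase moves electrons from NADPH across a membrane to oxygen and makes superoxide. Its membrane part is a heterodimer of CYBB and CYBA, and activity requires that cytosolic subunits, NCF1 among them, and a Rac GTPase join it. NCF4 is a further cytosolic subunit. Superoxide dismutases turn superoxide into hydrogen peroxide, SOD1 in the cytosol with copper and zinc and SOD2 in mitochondria with manganese, and catalase breaks hydrogen peroxide down in peroxisomes. PMA is a classical activator of this oxidase in macrophages and neutrophils, and all libraries here received it.

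Libraries held 19336073 to 32325981 counts. AF replicate 1 stood apart: ribosomal RNA entries and unnamed entries at the ribosomal DNA repeats of chromosome 21 took 34.4% of the total there and 0.743% to 0.961% elsewhere. Values below are CPM, counts scaled to library size with a correction for composition (TMM factors), unless said otherwise. A gene is called when its adjusted p is under 0.05 in edgeR's quasi-likelihood test with Benjamini-Hochberg adjustment over all 17535 genes. Errors of group means are SDs over 4 libraries and errors of log2 fold changes are SEs. Macrophage identity was checked on 9 marker genes, all of them tested and together at 5031 to 5788 CPM in DMSO and 4625 to 5107 in AF. Of these, ITGAX, ITGAM and CD14 were called higher with AF and LYZ lower. Of 15 markers of other cell types, 7 were too low to test, with at most 5 counts in any library, and MS4A1, EPCAM and COL1A2 were at 0 counts. Of the endothelial markers PECAM1 was abundant, at 316 ± 4.60 CPM in DMSO and 308 ± 13.6 in AF. VWF stood at 4.48 and 4.07 CPM, and CDH5 held at most 1 count in any library. Neither PECAM1 nor VWF was called. The granulocyte genes ELANE and CSF3R, which myeloid lines also express, were called lower and higher (log2 fold changes of -0.47 and 0.48). MPO and FCGR3B, listed with them, stood below 0 (-1.11 and -0.61) but were not called (adjusted p = 0.0513 and 0.279, edgeR). Both were low, with at most 28 and 18 counts in any library. What part these marker differences have in the results below was not tested. Fewer transcripts per cell and fewer cells of a kind cannot be told apart in bulk RNA.

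With auranofin 3 oxidase subunit genes were lower: CYBB fell by 15.2%, CYBA fell by 18.7% and NCF4 fell by 18.3%. The mitochondrial dismutase gene SOD2 rose 1.96-fold, while NCF1, RAC2, SOD1 and CAT were not called. Of the 8 members 4 were called, against 15.4% of all genes tested. By direction, 3 were lower, against 7.81% of all genes, and 1 was higher, against 7.62%. All members but NCF1 were abundant, above 86.1% to 99.1% of the genes tested by mean CPM. Shares among genes of like abundance were not taken, so these figures do not show an excess of calls. The median log2 fold change over the 8 was -0.07, against 0.005 over all genes tested. The 4 AF values did not overlap the 4 DMSO values for 3 members, against 19.5% of all genes tested: SOD2 lay above (9.86% of all genes) and CYBB and SOD1 lay below (9.68%).

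**Figure D1:**
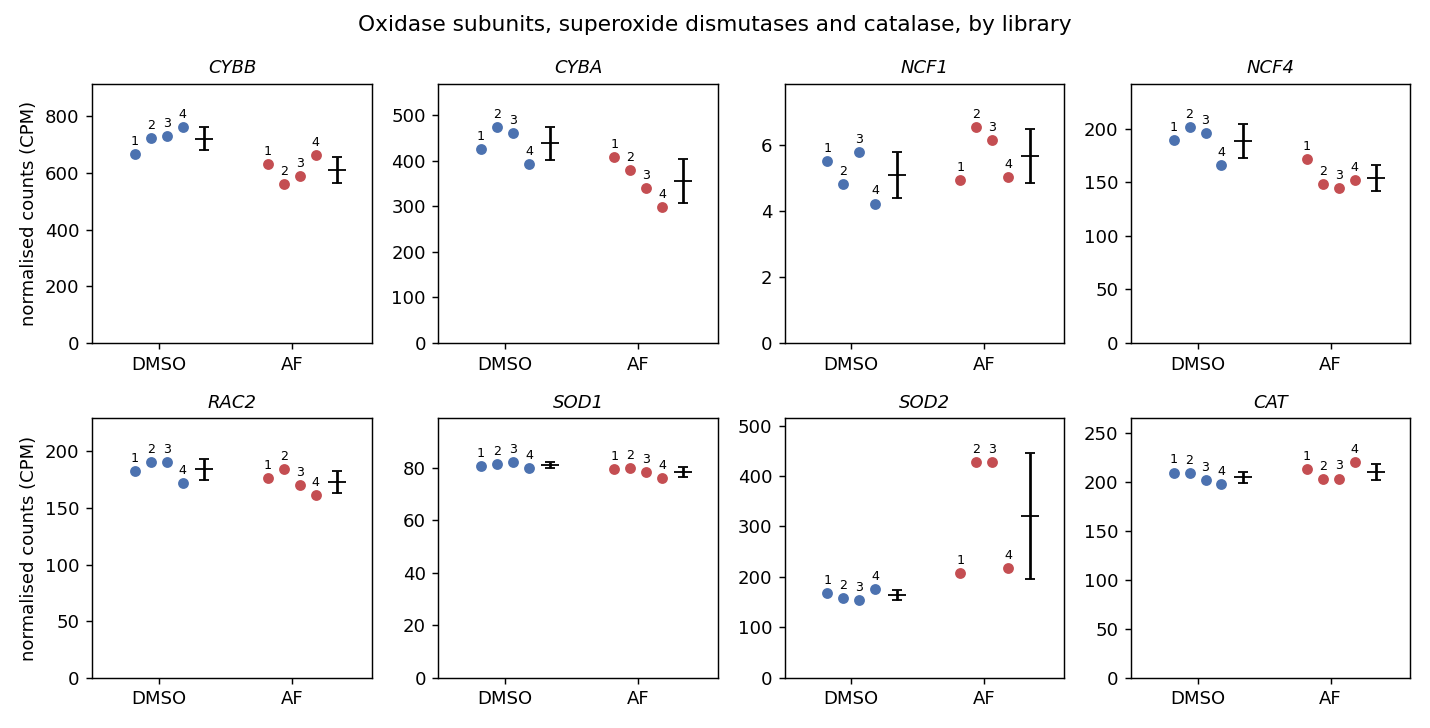
Normalised counts (CPM, linear axes from 0) of the 8 members in each library. Points are libraries, numbered by replicate, and black marks are the mean and SD of 4 libraries. SOD2 stands above DMSO in all 4 AF libraries, at about 428 CPM in replicates 2 and 3 and at 208 and 218 CPM in replicates 1 and 4.

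Of the membrane heterodimer, both chains were lower. CYBB (gp91-phox, also NOX2) is the catalytic chain and holds the flavin and haems that carry the electrons. It lies on chromosome X from 37780011 to 37813461 on the forward strand of GRCh38 (ENSG00000165168.7), and its counts are summed over the exons of the gene. CYBB stood at 666, 724, 732 and 763 CPM in DMSO replicates 1 to 4 and at 631, 561, 589 and 664 CPM in AF replicates 1 to 4. The groups did not overlap, but the gap between the highest AF and the lowest DMSO library was only 1.45 CPM. The means were 721 ± 40.6 and 611 ± 45.6 CPM, which gave a log2 fold change of -0.24 ± 0.07 (adjusted p = 0.0435 by edgeR). CYBB was among the most abundant transcripts, above 99.1% of the genes tested by mean CPM. It was no longer called without DMSO replicate 2 (adjusted p = 0.104), 3 (0.0979) or 4 (0.0916), or AF replicate 2 (0.120) or 3 (0.123), and with the libraries of each name stem summed (0.0631). Its log2 fold change stayed between -0.28 and -0.20 when any 1 library was left out.

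CYBA (p22-phox) is the smaller chain that stabilises CYBB and docks NCF1. It lies on chromosome 16 from 88643283 to 88651152 on the reverse strand (ENSG00000051523.10). CYBA stood at 427, 475, 460 and 392 CPM in DMSO and at 409, 380, 340 and 298 CPM in AF, in replicate order. Only AF replicate 1 reached into the DMSO range, above DMSO replicate 4. The means were 438 ± 36.7 and 357 ± 48.3 CPM, a log2 fold change of -0.30 ± 0.09 (adjusted p = 0.0433, edgeR). CYBA was no longer called without DMSO replicate 1 (adjusted p = 0.0719), 2 (0.131) or 3 (0.110), or AF replicate 3 (0.114) or 4 (0.0746), with the log2 fold change between -0.37 and -0.22. The AF library with the lowest CYBA, replicate 4, had the highest CYBB, and the DMSO library with the lowest CYBA, also replicate 4, had the highest CYBB. Accordingly the ratio of CYBB to CYBA counts within a library, which no scaling between libraries can alter, was 1.56, 1.53, 1.59 and 1.94 in DMSO and 1.54, 1.48, 1.73 and 2.23 in AF. The log2 ratio differed between groups by 0.07 (exact two-sided permutation test, p = 0.686, n = 4 per group, adjusted p = 0.686 over 3 ratios), less than the spread within either group (SD 0.16 in DMSO and 0.27 in AF).

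The sequences before the start sites of these chains differ in kind, and those of the called members with an entry in RefSeq's promoter table (GRCh38.p14) are shown with that of SOD2. Each line is 250 bases up to the annotated start nearest the principal transcript, 5′ to 3′ on the gene's strand. RefSeq's starts differ from those of GENCODE 29, by 48 bases for CYBB, 99 for CYBA and 87 for SOD2, and lie downstream in each, so the end of each window is within the principal transcript of GENCODE 29. Capitals mark GAGGAA on either strand, the core recognised by the myeloid factor PU.1 (SPI1), in CYBB, and the GC box GGGCGG on either strand in CYBA and SOD2.
CYBB chrX:37779809-37780058 (+): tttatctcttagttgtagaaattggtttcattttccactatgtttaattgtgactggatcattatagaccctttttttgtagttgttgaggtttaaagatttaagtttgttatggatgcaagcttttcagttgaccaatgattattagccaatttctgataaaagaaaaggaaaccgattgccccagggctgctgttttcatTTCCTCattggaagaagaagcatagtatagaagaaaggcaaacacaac
CYBA chr16:88651054-88651303 (-): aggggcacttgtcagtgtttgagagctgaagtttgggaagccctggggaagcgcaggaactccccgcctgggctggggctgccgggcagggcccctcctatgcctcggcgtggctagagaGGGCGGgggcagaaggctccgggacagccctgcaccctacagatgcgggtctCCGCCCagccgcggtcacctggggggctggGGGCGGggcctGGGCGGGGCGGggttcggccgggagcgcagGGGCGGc
SOD2 chr6:159693242-159693491 (-): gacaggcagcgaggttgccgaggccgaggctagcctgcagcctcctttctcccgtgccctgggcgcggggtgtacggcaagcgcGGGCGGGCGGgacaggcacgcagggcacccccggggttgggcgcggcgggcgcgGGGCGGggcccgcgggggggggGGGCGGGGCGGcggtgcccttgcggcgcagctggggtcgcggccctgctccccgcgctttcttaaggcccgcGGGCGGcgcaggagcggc

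The CYBB window was 34.0% G and C and held 1 PU.1 core, starting 48 bases before RefSeq's start and so at the GENCODE 29 start, 4 CCAAT boxes and no GC box. The windows of CYBA and SOD2 were 73.6% and 80.8% G and C and held 6 GC boxes each, some overlapping, although CYBA was called lower and SOD2 higher. In CYBA only the box 130 bases before RefSeq's start lay before the GENCODE 29 start, and the others lay within the principal transcript. In SOD2 the boxes at 166, 162 and 112 bases lay before the GENCODE 29 start, that at 90 spanned it, and those at 85 and 18 lay within the transcript. Among all 35116 promoter windows of this length, 42.6% held a GC box, 23.6% a PU.1 core and 11240 of them a CCAAT box. The antioxidant core TGACNNNGC, in 10.9% of all windows, was in none of these 3, and the NF-kB consensus, in 9.96%, was in CYBA alone. RefSeq's table gives 3 further SOD2 windows, none of which held either of those 2 motifs. Entries were found for 5 of the 8 members (CYBB, CYBA, NCF1, SOD2 and CAT). A match is a description of letters only, and its absence from a window says nothing about a factor.

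Of the cytosolic subunits, NCF4 was lower and NCF1 was not called. NCF4 (p40-phox) binds a phosphoinositide of phagosome membranes and supports oxidase activity there. It lies on chromosome 22 from 36860988 to 36878015 on the forward strand (ENSG00000100365.14). NCF4 stood at 190, 202, 196 and 166 CPM in DMSO and at 171, 148, 145 and 152 CPM in AF. As for CYBA, AF replicate 1 alone reached into the DMSO range, above DMSO replicate 4. The means were 188 ± 15.7 and 154 ± 12.0 CPM, a log2 fold change of -0.29 ± 0.07 (adjusted p = 0.0107, edgeR). Unlike those of CYBB and CYBA, this call was kept when any 1 library was left out, with adjusted p-values of 0.00250 to 0.0460.

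NCF1 (p47-phox) is the organiser that brings the cytosolic complex to the membrane once phosphorylated. It lies on chromosome 7 from 74773962 to 74789315 on the forward strand (ENSG00000158517.13), between its pseudogenes NCF1B (73220624 to 73235945) and NCF1C (75156639 to 75172044). Of all 50-base windows of its principal transcript, 84.5% also occur in transcripts of those pseudogenes, and of 100-base windows 64.5%, against 0% at both lengths for CYBB, CYBA, NCF4, RAC2, SOD1 and CAT. For SOD2, 7.88% of 50-base windows occur in transcripts of 162 other genes and 0.91% of 100-base windows in those of 15. One difference is known at the start of the second exon, shown here with 20 bases on each side, where capitals mark copies of GT.
NCF1: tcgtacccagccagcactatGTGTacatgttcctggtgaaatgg
NCF1C: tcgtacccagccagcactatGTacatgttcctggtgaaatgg

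NCF1 held only 88 to 221 counts per library and NCF1C, which by annotation makes no protein, 76 to 176. How reads that fit both were counted is not given in the sources used here, so the level of NCF1 is uncertain and cannot be set beside those of its partners. NCF1 stood at 5.51, 4.81, 5.79 and 4.23 CPM in DMSO and at 4.94, 6.55, 6.15 and 5.03 CPM in AF, and the groups overlapped. Its log2 fold change was 0.16 ± 0.14 (95% interval -0.14 to 0.46; adjusted p = 0.479, edgeR). For NCF1C the log2 fold change was 0.17 ± 0.16 (adjusted p = 0.501), and NCF1B, at 3 to 18 counts, was not tested. Summed over the gene and both pseudogenes, an alternative added after the data were seen, the log2 fold change was 0.18 ± 0.12 (adjusted p = 0.315).

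RAC2 is the haematopoietic Rac GTPase that completes the active oxidase. It lies on chromosome 22 from 37225261 to 37244448 on the reverse strand (ENSG00000128340.14). RAC2 stood at 183, 191, 191 and 172 CPM in DMSO and at 176, 185, 170 and 162 CPM in AF, and the groups overlapped. The means were 184 ± 9.15 and 173 ± 9.74 CPM, a log2 fold change of -0.09 ± 0.06 that was not called (95% interval -0.21 to 0.03; adjusted p = 0.328, edgeR).

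Of the enzymes that clear superoxide and peroxide, SOD2 rose and SOD1 and CAT were not called. SOD2 lies on chromosome 6 from 159669057 to 159745186 on the reverse strand (ENSG00000112096.17). In GENCODE 29 a second entry also carries its symbol. The annotation used for the counts is not given, so whether both entries enter the SOD2 row is not known. SOD2 stood at 167, 157, 155 and 176 CPM in DMSO and at 208, 429, 428 and 218 CPM in AF. All 4 AF libraries lay above all 4 DMSO libraries, but they formed 2 levels, with replicates 2 and 3 about double replicates 1 and 4. That division follows neither the stems of the library names, which join AF replicates 1 with 2 and 3 with 4, nor their last digits, which join 1 with 3 and 2 with 4. Over all genes, too, AF replicates 2 and 3 had the most similar counts of any AF pair (chi-square per degree of freedom 4.47), as did DMSO replicates 2 and 3 (2.93) and then 1 and 4 (4.92) among DMSO pairs. AF replicates 1 and 4 were not a close pair (586.9), replicate 1 being the library with the ribosomal entries, and the part of this likeness in the SOD2 values was not tested. In DMSO the order was the opposite, with replicates 2 and 3 the lowest. The means were 164 ± 9.74 and 321 ± 125 CPM, a log2 fold change of 0.97 ± 0.19 (95% interval 0.55 to 1.38; adjusted p = 0.00393, edgeR). The call was kept when any 1 library was left out, with log2 fold changes of 0.80 to 1.13 and adjusted p-values up to 0.0161. The coefficient of variation of SOD2 was 38.9% in AF and 5.94% in DMSO.

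SOD1 lies on chromosome 21 from 31659622 to 31668931 on the forward strand (ENSG00000142168.14). SOD1 was the steadiest member, at 80.8, 81.7, 82.5 and 80.04 CPM in DMSO and 79.8, 79.8, 78.3 and 76.1 CPM in AF. Its groups did not overlap, by a gap of 0.192 CPM. The log2 fold change was -0.05 ± 0.05 (95% interval -0.15 to 0.05; adjusted p = 0.535, edgeR). Within libraries, SOD2 counts were 2.07, 1.93, 1.88 and 2.20 times those of SOD1 in DMSO and 2.604, 5.37, 5.47 and 2.86 times in AF. The log2 ratio was higher in AF by 0.93 (exact two-sided permutation test, p = 0.0286, the smallest that 4 against 4 libraries can give; adjusted p = 0.0857 over 3 ratios), and every AF library exceeded every DMSO library. Lengths are shared by both groups, so the change of this ratio does not depend on them. As no other ratio reached that smallest p, the adjusted p could not have been lower. The ratios were chosen with an earlier SOD2 result of these data known. SOD1 hardly varied, so its ratio with SOD2 largely repeats the SOD2 values.

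**Figure D2:**
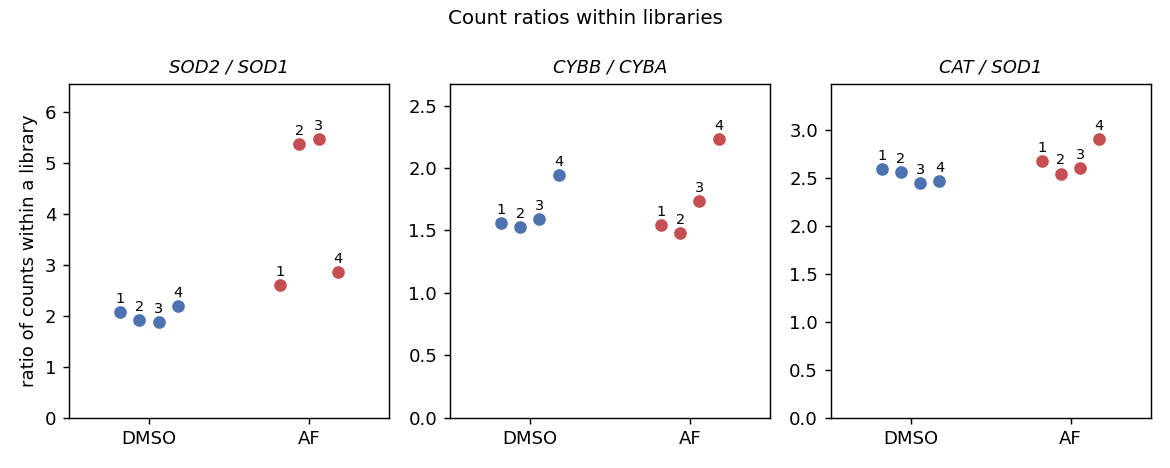
Ratios of raw counts of 2 members within each library (linear axes from 0), points numbered by replicate. The SOD2 to SOD1 ratio is 1.88 to 2.20 in DMSO and 2.604 to 5.47 in AF, whereas the groups overlap for CYBB to CYBA and for CAT to SOD1.

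CAT lies on chromosome 11 from 34438925 to 34472062 on the forward strand (ENSG00000121691.5). CAT stood at 210.0, 209, 202 and 198 CPM in DMSO and at 214, 204, 204 and 221 CPM in AF, and the groups overlapped. The means were 205 ± 5.77 and 211 ± 8.52 CPM, a log2 fold change of 0.04 ± 0.05 (95% interval -0.07 to 0.15; adjusted p = 0.665, edgeR). The sign of this small value turned negative, to -0.11, when libraries were scaled by their totals alone, a scaling under which the median of all genes was -0.15. The ratio of CAT to SOD1 counts was 2.599, 2.56, 2.45 and 2.47 in DMSO and 2.68, 2.55, 2.603 and 2.91 in AF, a difference of 0.09 on the log2 scale (exact two-sided permutation test, p = 0.114, n = 4 per group, adjusted p = 0.171 over 3 ratios).

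The calls of the 3 lower subunits also depended on scaling. With library totals alone 0 of the 8 members were called lower, with adjusted p-values of 0.276 for CYBB, 0.145 for CYBA and 0.117 for NCF4, although their log2 fold changes (-0.39, -0.47 and -0.46) were then further below 0. With totals that left out the ribosomal RNA and ribosomal DNA entries, an alternative added after the data were seen, the same 3 were called again, at -0.26, -0.32 and -0.31 (adjusted p = 0.0155, 0.0181 and 0.00498, edgeR). Leaving out AF replicate 1 also kept all 3. SOD2 was called under each of these scalings.

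**Figure D3:**
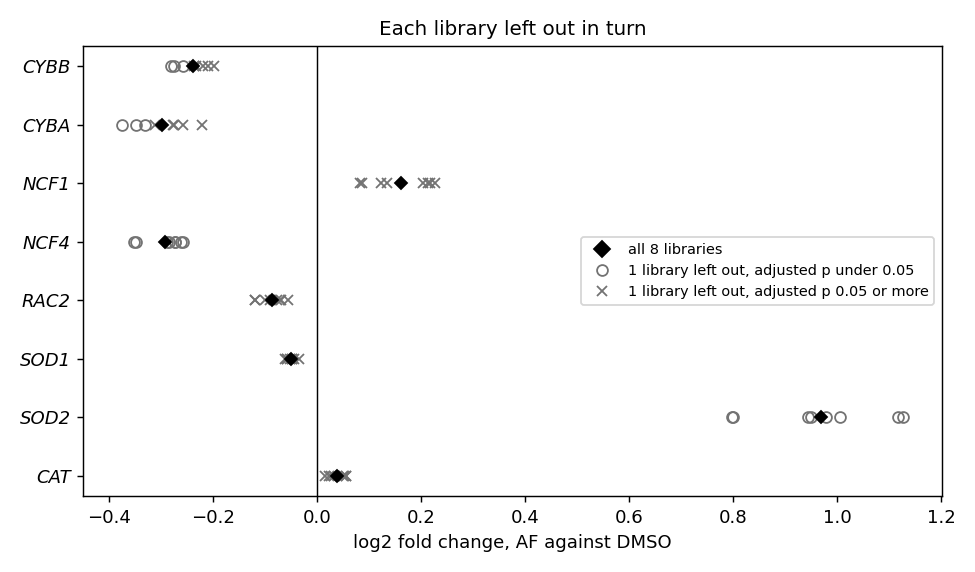
Log2 fold changes of the 8 members with all 8 libraries (diamonds) and with each library left out in turn (circles where the adjusted p was under 0.05, crosses where it was not). SOD2 and NCF4 have circles throughout, CYBB and CYBA a mix, and no member changes sign.

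Per kilobase of annotated exon the order of levels in DMSO was CYBB (163 ± 9.18 CPM per kb), CYBA (131 ± 10.9), NCF4 (107 ± 8.95), RAC2 (72.7 ± 3.62), CAT (57.1 ± 1.61), SOD1 (40.2 ± 0.519) and SOD2 (9.94 ± 0.591), with NCF1 uncertain at 1.47 ± 0.203. On these all-exon lengths neighbours in that order were separated by more than their SDs. The order rests on the exon lengths of GENCODE 29, which for SOD2 include a principal transcript of 14266 bases. The counts may rest on another annotation. Over the shortest principal transcript SOD2 was at 166 ± 9.84 CPM per kb, level with CYBB (167 ± 9.39), and CYBA was highest at 550.1 ± 46.0. On that scale NCF4 (135 ± 11.3) and RAC2 (124 ± 6.18) were closer than the SD of NCF4. The places of SOD2 and CYBA, and the order of NCF4 and RAC2, are thus not settled. On the all-exon scale the AF levels kept the DMSO order, with CYBB at 138 ± 10.3, CYBA at 106 ± 14.4, NCF4 at 87.6 ± 6.82 and SOD2 at 19.4 ± 7.56 CPM per kb.

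Among 20 other subunits, assembly factors and regulators of the phagocyte oxidase, 4 were called lower (against 7.81% of all genes tested) and 2 higher (against 7.62%), and 14 were not called. All 20 were tested, with a median log2 fold change of -0.15, against 0.005 over all genes. The 2 higher are close to the number that the share over all genes would give. RAC1, the ubiquitous relative of RAC2, differed by -0.04 ± 0.06 on the log2 scale (adjusted p = 0.664), and 39.9% of its 50-base windows are shared with RAC1 pseudogenes. CYBC1, the chaperone needed for the heterodimer, stood at -0.16 ± 0.08 (adjusted p = 0.219).

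The called partners were signalling and Rac regulators and the S100 pair. Not all listed regulators of these kinds were called. VAV3 and PRKCB stood above 0 on the log2 scale (0.18 and 0.09). DOCK2, PREX1, PRKCD and ARHGDIA stood below it (-0.12, -0.17, -0.13 and -0.18). None of these was called (adjusted p = 0.104 to 0.296, edgeR). ARHGDIB, which holds Rac and related GTPases in the cytosol of blood cells, fell by 0.28 ± 0.06 on the log2 scale, from 290.2 ± 14.9 to 239 ± 4.43 CPM (adjusted p = 0.00503, edgeR). PRKCA, a protein kinase C that PMA activates, fell by 0.25 ± 0.06 and the Rac effector kinase gene PAK1 by 0.26 ± 0.07. VAV1, a Rac exchange factor gene, fell by 0.23 ± 0.06. The AF and DMSO values of these 4 genes did not overlap. Over all genes tested 9.68% lay below DMSO in this way. These 4 were picked as called lower, so the separation is not separate support. VAV1 was not called without DMSO replicate 2 (adjusted p = 0.0523) or AF replicate 3 (0.0546), and that of PAK1 without DMSO replicate 2 (0.0833) or 3 (0.0645) or AF replicate 3 (0.0826). S100A9 and S100A8 encode calcium-binding proteins that carry arachidonic acid to the oxidase. S100A9 rose from 281 ± 41.5 to 409.8 ± 22.8 CPM (0.55 ± 0.09; adjusted p = 0.00120) and S100A8 from 85.0 ± 13.9 to 106 ± 8.03 CPM (0.31 ± 0.09; adjusted p = 0.0358), a call that 6 of 8 single libraries ended: DMSO replicates 1 (0.104), 2 (0.0549) and 4 (0.0831) and AF replicates 1 (0.0800), 3 (0.0504) and 4 (0.0542). The myeloid factors SPI1 and IRF8, which bind oxidase gene promoters, were not called (-0.15 ± 0.08 and -0.19 ± 0.07; adjusted p = 0.249 and 0.0762). ELF1, a further transcription factor of the list, had the opposite sign and was not called either (0.19 ± 0.08; adjusted p = 0.145, edgeR).

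**Figure D4:**
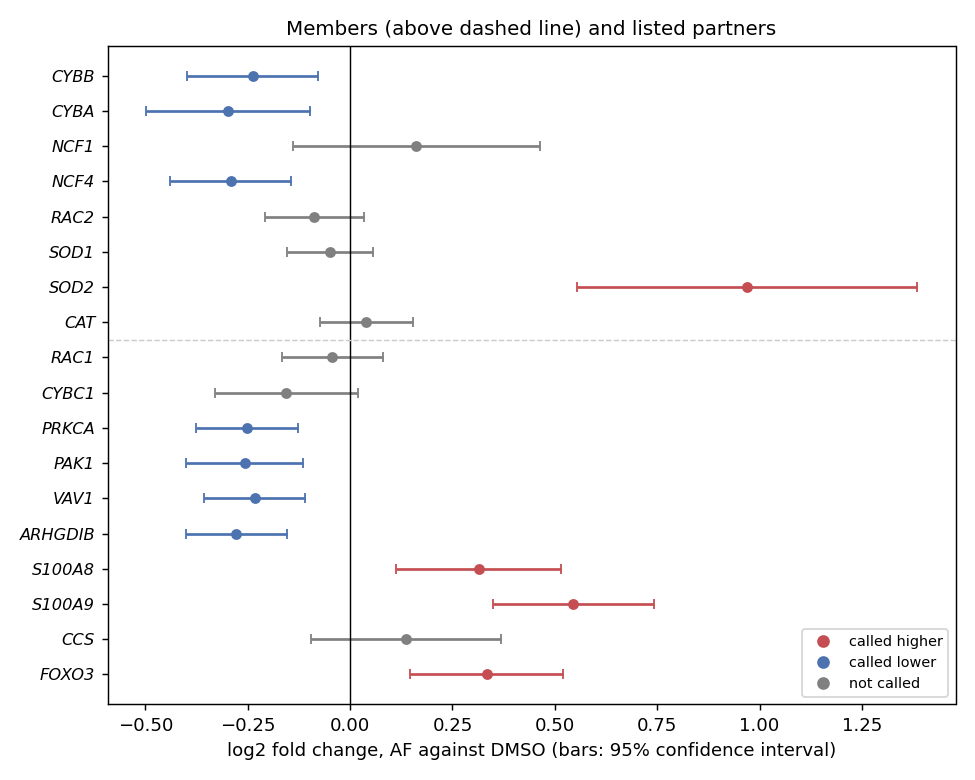
Log2 fold changes of the 8 members and of 10 other listed genes with 95% confidence intervals (edgeR, 4 libraries per group), red where called higher, blue where called lower and grey where not called. SOD2 lies farthest from 0, at 0.97, and the called oxidase subunits lie between -0.30 and -0.24.

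CYBB was the one NADPH oxidase catalytic gene with appreciable counts. Of 10 other oxidases and partners, 9 were too low to test, with at most 15 counts in any library. NOX3, NOX4, NOX5, DUOXA2 and NOXO1 were listed at 0 counts in every library, which allows up to 0.0889 to 0.159 CPM per library for counting error alone (3 counts). DUOX1, an oxidase of epithelia, held 5 to 15 counts and NOX1 1 to 7. The activator gene NOXA1 was the 1 tested, at 7.62 ± 1.06 CPM in DMSO and 7.27 ± 1.64 in AF (adjusted p = 0.819, edgeR; 0 genes of this list called, 0 at an unadjusted p under 0.05, and 0 with DESeq2).

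In a list of 15 genes for other clearance enzymes, copper supply, catalase import and their regulators, 12 were tested and only FOXO3 was called, which is close to the share of all genes called higher (7.62%). FOXO3, a transcription factor known to drive SOD2 and CAT in other cells, rose from 235 ± 31.4 to 296 ± 22.5 CPM (0.33 ± 0.09; adjusted p = 0.0194, edgeR), and remained higher but was not called without DMSO replicate 2 (0.28; adjusted p = 0.0730) or 3 (0.27; 0.0672). Its AF values, 276 to 322 CPM, lay above its DMSO values, 205 to 264 CPM, as for 9.86% of all genes tested. CCS, the copper chaperone of SOD1, stood at 16.4 ± 2.48 and 18.1 ± 1.09 CPM (0.14 ± 0.11; adjusted p = 0.433), and turned to -0.02 with library totals alone. Extracellular SOD3 held at most 4 counts in any library and was not tested. The median over the 12 was 0.13. The largest change of the list was that of MPO, -1.11 ± 0.36, which was not called (adjusted p = 0.0513, edgeR). MPO held only 5 to 28 counts per library, and its AF values all lay below its DMSO values, as for 9.68% of all genes tested.

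The genes most like SOD2 across the 8 libraries, by Pearson correlation of log2 CPM among 10987 named genes averaging 5 CPM or more, were NFKB1 and GIMAP8 (r = 0.99 each), CHST11 (0.99) and TRAF3 (0.99). NFKB1 encodes an NF-kB subunit and TRAF3 an adaptor of that pathway. Their log2 fold changes were 0.46, 0.33, 0.43 and 0.51, smaller than that of SOD2. The genes most like CYBA, the member that fell most, were APRT (r above 0.99), POMGNT2, H2AX and NOC2L (0.99 each), with log2 fold changes of -0.34, -0.27, -0.44 and -0.17. These correlations describe 8 libraries that share the group difference, their depth and their scaling, and they are the highest of all genes compared.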

How the data were processed

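Per the submitters' processing notes, STAR 2.6.1d, featureCounts, Subread 1.6.3 and GRCh38 were used. For the annotation, the strand setting and multi-mapped reads the choice is not given in the sources used here. Raw counts per gene were deposited as a single table, whose columns were matched to samples by title. Counts as deposited were tested with edgeR 4.0.16 in R 4.3.3 (TMM, filterByExpr, glmQLFit and glmQLFTest, two-sided, Benjamini-Hochberg over 17535 genes, no block, 6 residual degrees of freedom, biological coefficient of variation 12.8%). The SE is the log2 fold change divided by the square root of F. On simulated counts all 50 genes changed by 1 on the log2 scale were recovered, but only 4 of 50 at 0.25, with 3 false calls among 17286 genes. The simulation gave every gene the same dispersion, so recovery of the subunit genes at their own levels and spread was not tested. No 2 libraries agreed within sampling noise (lowest chi-square per degree of freedom 2.93, limit 1.1), so each entered singly. Correlations were taken on log2(CPM + 0.5). Positions and exons came from GENCODE 29 (GRCh38), promoters from RefSeq (GRCh38.p14). All members were named, and of each list the called genes plus RAC1, CYBC1, the NCF1 pseudogenes, SOD3 and CCS. SPI1, IRF8, ELF1, MPO, NOXA1 and the other oxidases were named beyond that rule after their values were seen. The same holds for VAV3, PRKCB, PRKCD, DOCK2, PREX1 and ARHGDIA. One listed gene is not reported here. Members, lists and ratios were chosen with earlier results of these data known. Alternatives used DESeq2 1.42.0, limma 3.58.1, other scalings, filters and blocks, summed stems, and each library left out.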

Additional observations from a re-analysis of the deposited data

Results flagged for a closer look

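RAC1 in AF replicate 4 stood at 209.6 CPM, apart from the other 3 AF libraries at 195.6 to 196.1 CPM. The gap made up 0.967 of the range of the group, above Dixon's critical value at the 95% level for 4 samples. It was the 1 group past that limit among 40 examined, where chance gives about 1 in 20, and the value lies within the DMSO range of 187 to 215 CPM.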

How the results depend on the processing

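SOD2 kept its direction and call under all 20 alternatives, with log2 fold changes of 0.80 to 1.13. With library totals alone, and with totals less named ribosomal RNA genes, the genes called were 183 and 203 higher and 700 and 760 lower (20.7% higher with totals alone, against 49.4%). Members called lower then numbered 0 and 0, partners 0 higher and 0 lower, and clearance genes 0 higher. Under these 2 scalings CAT turned to -0.11 and -0.11 and CCS to -0.016 and -0.010, above the median of all genes, -0.15 and -0.14. Members without overlap became 0 higher and 4 lower. The 4 unnamed entries at the ribosomal DNA repeats escaped that planned filter. Removing them too gave 7 partners lower, 1 clearance gene lower (MPO) and 4 members without overlap below DMSO, and totals alone without AF replicate 1 gave 1 partner higher, 7 lower, 0 clearance genes higher and 4 members without overlap. No filter on low counts left 0 members without overlap below DMSO, and summed stems 2 above and 4 below. limma voom called 1 clearance gene lower. The cause of these shifts was not tested. Leaving out single libraries gave 768 to 1462 genes higher, 833 to 1502 lower, 1 to 3 members lower (1 without DMSO replicate 2 or 3 or AF replicate 3), partners 1 to 2 higher and 2 to 6 lower, clearance genes 0 to 1 higher and 0 to 1 lower, and 2 to 4 members without overlap below DMSO. The log2 ratio of CYBB to CYBA was -0.06 to 0.14, negative without AF replicate 4 (-0.059). That of SOD2 to SOD1 was 0.76 to 1.12 and that of CAT to SOD1 0.050 to 0.11, both past the threshold without AF replicate 2 (0.77 and 0.11, adjusted p = 0.0429, exact permutation test). Replicate numbers pair the libraries by number only: deviations of same-numbered libraries correlated at 0.174, 0.347, 0.0275 and 0.469, and DMSO replicate 3 fitted AF replicate 2 better. With the replicate block 2102 genes were higher and 2086 lower, partners 4 higher and 10 lower, and clearance genes 2 higher and 1 lower, while the members' calls were as without it. Low counts limit NCF1, its pseudogenes and the other oxidases.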
